A study of Mus musculus with 4 samples.

Results

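The ATP-dependent chromatin remodelers of B16F10 cells, a mouse melanoma line, were compared between cells with lowered Lmna expression and control cells. Members were all rows of the deposited count matrix whose gene symbol begins with Smarca to Smarce, with Arid1 to Arid5, or with Chd followed by a digit. This rule took 35 of 24421 rows. They comprised 33 protein-coding genes of remodeling complexes and of the ARID family, the pseudogene Smarca5-ps, and Chd3os, a row named after its position opposite Chd3 that encodes no remodeler. The rule used symbols and no measured value. The ARID family shares a DNA-binding domain, and only Arid1a, Arid1b and Arid2 among its members are subunits of a SWI/SNF complex, so the other Arid genes are described on their own.

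All 4 libraries came from B16F10 cells (strain C57BL/6 in the labels) that were infected with lentivirus, selected with puromycin and grown in DMEM with FBS. The 2 shControl libraries came from cells that the labels describe as carrying a control shRNA, while the study's methods list an empty vector, so an effect of carrying any hairpin cannot be told apart from the effect of the knockdown. The 2 shLmna libraries came from cells carrying a short hairpin RNA designed against exon 8 of Lmna, which encodes both A-type lamins (A and C). These proteins form part of the meshwork under the inner nuclear membrane. RNA was counted by bulk MARS-seq, which primes at the poly(A) tail and reads the 3′ ends of transcripts. Pairs of values for control (shControl) or knockdown (shLmna) libraries are given in the order of replicates 1 and 2. No source says whether they stem from separate cultures or infections, so p-values measure the spread between these libraries, which may be technical.

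Remodelers use ATP hydrolysis to slide, eject or exchange histones and thereby set how open a stretch of chromatin is. SWI/SNF (BAF) complexes mostly open chromatin, ISWI complexes space nucleosomes evenly, and CHD proteins include the motor of the deacetylase complex NuRD. In melanocytes and melanoma, SWI/SNF complexes built on Smarca4 act with the transcription factor MITF on pigment cell genes. The lamina, in turn, tethers inactive chromatin to the edge of the nucleus, and the study examined how lowering A-type lamins in melanoma cells alters the nucleus and the transcriptome.

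Library totals ran from 2494880 to 3808843 counts. Lmna had control counts of 2826 and 2684 and knockdown counts of 331 and 480. It fell by 2.61 on the log2 scale (SE 0.142), or by 83.6%, which fits the labels of all 4 libraries. Melanocyte genes summed to between 20170 and 24685 CPM (counts scaled to a common library size by TMM) per library, although Tyr itself had 7 or fewer counts in each. Single markers differed between groups in both directions, with Sox10 lower by edgeR (log2 fold change -0.89, adjusted p = 0.00161) and Mlana (0.51, 0.00510), Pmel (0.41, 0.0258) and Gpr143 (0.51, 0.0448) higher. Of 11 markers of leukocytes, endothelium, fibroblasts and epithelium, 8 had no count in any library and 10 stayed under 10 counts. The median change over all tested genes was -0.00086 on the log2 scale. In bulk RNA, a smaller number of expressing cells and less RNA per cell cannot be told apart.

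Most tested members did not pass the test in shLmna cells, which held for tested genes in general (4 of 25 passed, near the 15.2% of all tested genes). The members that passed were a few of low abundance plus a single abundant subunit. The filter on low counts kept 25 members for testing and removed 10. Of these 25, 4 passed the quasi-likelihood test of edgeR at an adjusted p under 0.05. Smarca2, Arid4b and Chd3os fell and Smarcc1 rose. A further 6 members had an unadjusted edgeR p under 0.05 and did not pass. The share of all tested genes at this unadjusted limit was not computed, so that number is not read as a result about the members. The median log2 fold change of tested members was -0.21, against -0.00086 over all tested genes. Of the tested members, 5 reached 10 counts in no shLmna library and were kept through shControl, where they were higher. That filter pulls the median of so few genes down, so it is not read as a shift of the set. Over all 9150 tested genes, 15.2% passed, with 9.74% lower and 5.48% higher. With the study's limits added (a log2 fold change over 1 in size and a mean normalized count over 5), Smarca2, Arid4b and Chd3os were called, against 7.64% of all tested genes, of which 5.88% were lower and 1.76% higher. These 3 reached the filter on low counts through their shControl libraries, and in shLmna no library of any of them reached 10 counts, so their count says nothing about the set as a whole.

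**Figure D1:**
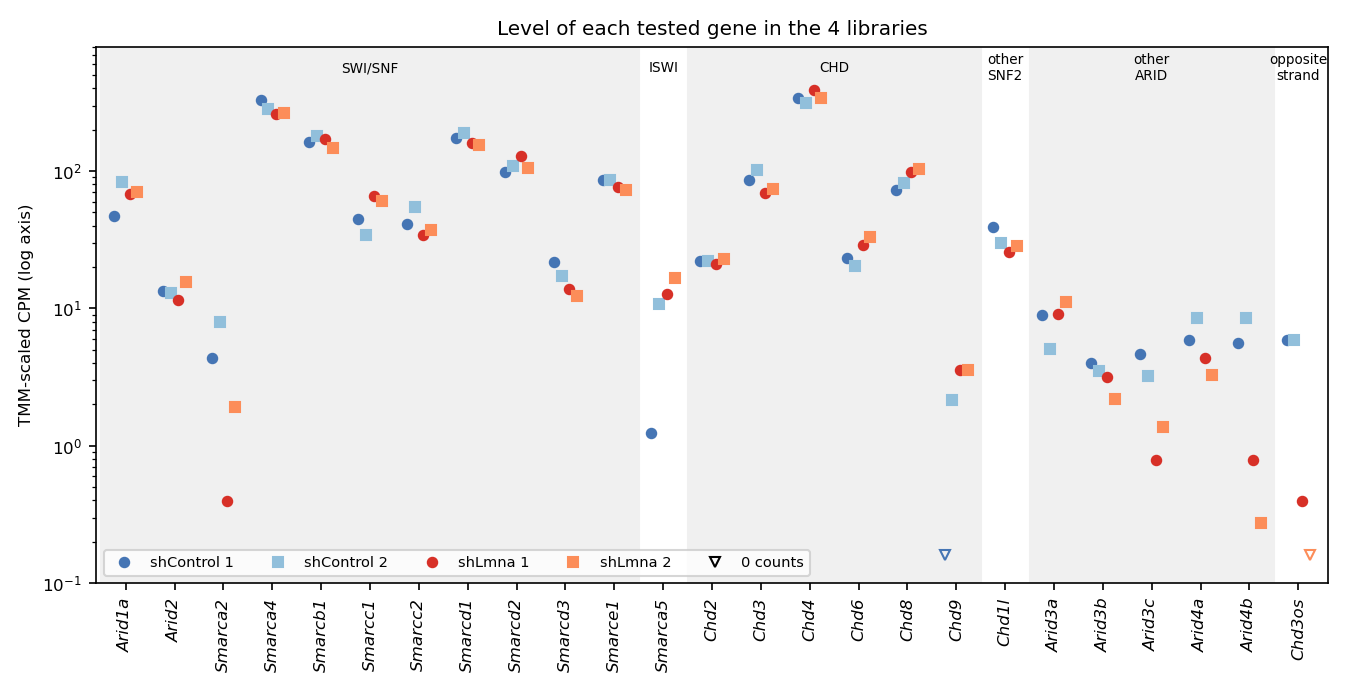
TMM-scaled CPM (log axis) of the 25 tested rows in each library, grouped by subfamily, with blue points for shControl, red and orange points for shLmna and open triangles for 0 counts. Smarca4 and Chd4 stand above 200 CPM in all 4 libraries, while the shLmna points of Smarca2, Arid4b and Chd3os lie under 2 CPM and below both control points.

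For most of the abundant members the data limit a change to under 2-fold, as far as the spread between these libraries goes. In the 10 members with over 100 counts in every library, log2 fold changes ran from -0.40 for Chd3 to 0.68 for Smarcc1, and in 9 of these 10 the 95% interval of the change lay within 2-fold in either direction. The exception was Smarcc1. An interval within 2-fold does not mean no change. Those of Chd3 (-0.72 to -0.08) and Chd8 (0.08 to 0.69) left out 0, although neither gene passed the test. Over all 25 tested members 14 intervals lay within 2-fold, compared with 66.0% of all tested genes. The values of the 2 groups did not overlap in 20 of 25 members (80%), but this holds for 60.1% of all tested genes, and with 2 libraries a group it is a weak criterion.

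**Figure D2:**
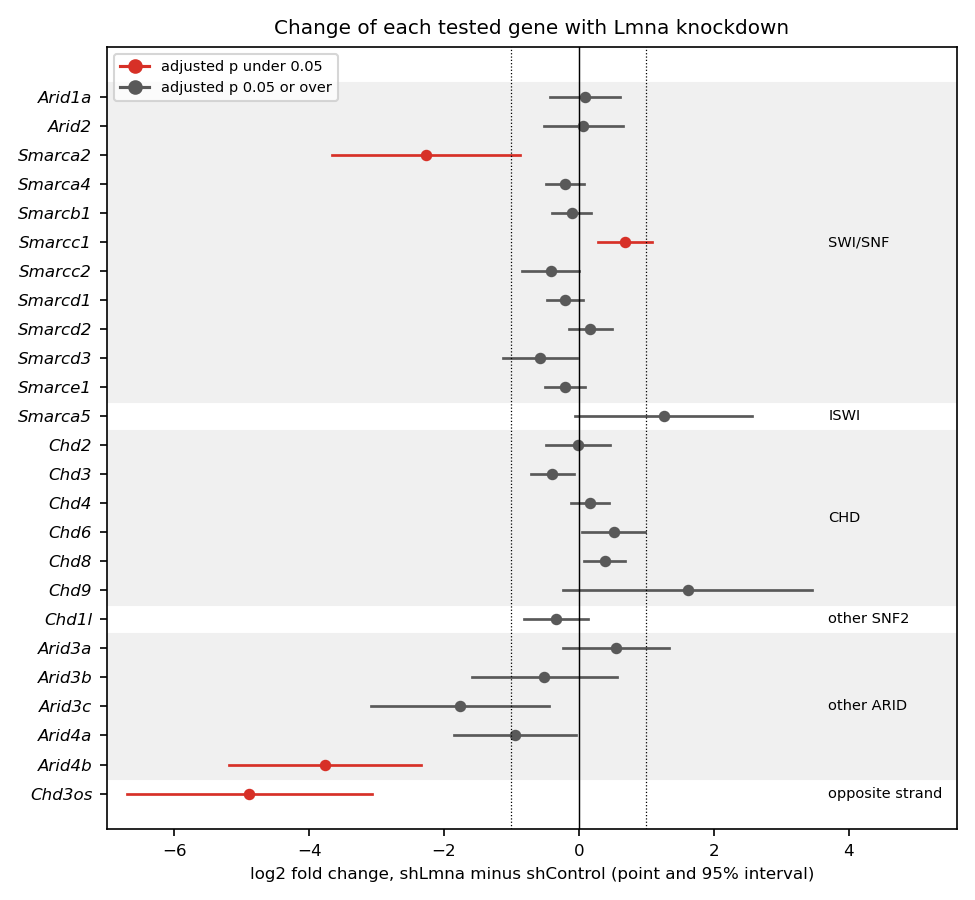
Log2 fold change (shLmna minus shControl) of each tested row with its 95% interval, by subfamily, with rows at an adjusted p under 0.05 in red and dotted lines at a 2-fold change. Most intervals cross 0, and Smarcc1 is the only red point to the right of it.

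The SWI/SNF complex is built on 1 of 2 alternative ATPases, BRG1 (Smarca4) and BRM (Smarca2). Smarca2 fell and Smarca4 did not pass the test. Smarca2 (chromosome 19, 26605050 to 26778322, plus strand, GRCm38) had control counts of 14 and 30 and knockdown counts of 1 and 7. All counts were low, and both shLmna values lay below both control values. Its level was 6.18 ± 2.61 CPM in shControl and 1.15 ± 1.07 CPM in shLmna (SD, n = 2 per group). Smarca2 fell by 2.27 on the log2 scale (SE 0.622) at an edgeR adjusted p of 0.0364. On the summed counts of each group, 44 against 8, Smarca2 was 4.90-fold lower with a 95% counting interval of 2.28 to 12.0. The test no longer passed with 3 of the libraries left out in turn, at an edgeR adjusted p of 0.163 without shControl 2, 0.224 without shLmna 1 and 0.0898 without shLmna 2, and DESeq2 gave 0.217 with all libraries.

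Smarca4 (chromosome 9, 21616169 to 21704230, plus strand) had control counts of 1056 and 1054 and knockdown counts of 663 and 976. In CPM this was 327 and 282 against 262 and 266. The shLmna values were the lower pair, and the lower control value exceeded the higher of them by less than the control values differed. The fitted difference was -0.21 on the log2 scale (SE 0.127, edgeR adjusted p = 0.316), and its 95% interval ran from -0.49 to 0.08. Smarca2 took 1.31% and 2.77% of the counts of both ATPases in shControl and 0.151% and 0.712% in shLmna, so BRG1 transcripts made up nearly the whole of the pair in every library.

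The promoter stretches of the 3 remodeler and ARID genes that passed the test are shown with that of Smarca4, so that the fallen ATPase can be set beside its abundant paralogue. Each is the 250 bases before the RefSeq transcription start on the plus strand (GRCm38.p6), from the table in which 25 members had an entry. Capitals mark matches on either strand to 4 common promoter motifs, and no match overlaps another. The TATA box was searched as TATAAA. The CCAAT box was searched by those letters, the GC box as GGGCGG. A site of ETS factors was searched as CCGGAAG. The windows are chr19:26604910-26605159 for Smarca2, chr9:21615919-21616168 for Smarca4, chr9:110131774-110132023 for Smarcc1 and chr13:14063534-14063783 for Arid4b. The gene spans printed in this report come from GENCODE, and their starts differ from the RefSeq starts except for Smarca4. The Smarca2 window runs into the GENCODE span of its gene. Those of Smarcc1 and Arid4b lie wholly inside it, so they are not upstream of the GENCODE starts.
Smarca2: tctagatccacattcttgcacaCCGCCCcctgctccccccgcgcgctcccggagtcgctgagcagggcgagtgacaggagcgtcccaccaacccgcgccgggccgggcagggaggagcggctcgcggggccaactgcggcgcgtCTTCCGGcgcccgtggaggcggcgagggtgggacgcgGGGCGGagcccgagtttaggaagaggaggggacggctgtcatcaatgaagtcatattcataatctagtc
Smarca4: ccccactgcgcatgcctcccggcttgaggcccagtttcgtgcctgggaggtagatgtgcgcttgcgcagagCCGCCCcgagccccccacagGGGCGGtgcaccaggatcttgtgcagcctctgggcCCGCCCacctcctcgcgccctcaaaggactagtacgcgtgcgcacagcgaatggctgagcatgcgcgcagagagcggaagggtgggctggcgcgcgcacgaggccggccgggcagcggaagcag
Smarcc1: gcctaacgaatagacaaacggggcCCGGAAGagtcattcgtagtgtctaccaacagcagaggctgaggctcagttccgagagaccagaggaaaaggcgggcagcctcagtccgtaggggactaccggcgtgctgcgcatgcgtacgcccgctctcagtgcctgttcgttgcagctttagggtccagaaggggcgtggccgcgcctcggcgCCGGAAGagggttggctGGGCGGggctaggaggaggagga
Arid4b: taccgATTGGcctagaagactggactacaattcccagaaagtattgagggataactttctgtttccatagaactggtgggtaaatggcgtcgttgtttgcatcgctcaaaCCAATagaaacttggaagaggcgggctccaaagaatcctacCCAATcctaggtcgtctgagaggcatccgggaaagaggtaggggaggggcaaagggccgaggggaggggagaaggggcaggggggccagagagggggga

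None of the 4 windows held the letters of the TATA box. Smarca2 held 2 GC box matches and 1 ETS match, Smarcc1 1 GC box match and 2 ETS matches, Smarca4 3 GC box matches, and Arid4b 3 CCAAT matches. Of 32851 promoter windows of this length in the table, 12.4% held the TATA box letters, 33.8% CCAAT, 32.7% the GC box and 6.91% the ETS site. Smarca2 and Arid4b shared no motif of these 4, while Smarca2 shared both of its motifs with Smarcc1. Median GC content was 66% over the windows of members and 52.4% over the whole table. Whether these motifs bear on the changes was not tested. CG dinucleotides numbered 28 in Smarca2, 25 in Smarca4, 21 in Smarcc1 and 8 in Arid4b, and their median was 21 over the 31 windows of members and 6 over the whole table. These matches describe letters in a window and no binding was measured.

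Smarcc1 and Smarcc2 encode BAF155 and BAF170, the paired scaffold proteins around which the complex assembles. Smarcc1 (chromosome 9, 110117708 to 110240178, plus strand) had control counts of 144 and 127 and knockdown counts of 167 and 221. Both shLmna libraries were higher, in spite of the low total of shLmna 1. The level rose from 39.3 ± 7.50 to 63.1 ± 4.13 CPM (SD, n = 2 per group), or by 0.68 on the log2 scale (SE 0.177, edgeR adjusted p = 0.0284). DESeq2 gave an adjusted p of 0.134 for the same gene, and edgeR gave 0.0949 without shControl 2, 0.178 without shLmna 1, 0.132 without shLmna 2 and 0.0504 after a correction for GC content.

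Smarcc2 had the opposite sign and did not pass the test. It had control counts of 133 and 203 and knockdown counts of 86 and 137, and its log2 fold change was -0.42 (SE 0.190, edgeR adjusted p = 0.171). Without shControl 1 the edgeR adjusted p of Smarcc2 was 0.0332. Smarcc1 made up 52.0% and 38.5% of the counts of both scaffold genes in shControl, and 66.0% and 61.7% in shLmna. The shLmna shares were the higher pair, with a mean difference of 18.6 percentage points, and the control shares differed by more between themselves than the shLmna shares did. An exact two-sided permutation test of 2 libraries against 2 cannot give a p under 0.333, which it gave here.

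The remaining core subunits of SWI/SNF did not pass the test. Smarcb1 (SNF5, a subunit that contacts the nucleosome and is lost in rhabdoid tumors) had a log2 fold change of -0.11, and its 95% interval ran from -0.40 to 0.19. Smarce1 (BAF57) had -0.21 and Smarcd1 (BAF60A) -0.21. The other BAF60 genes had 0.17 for Smarcd2 and -0.57 for Smarcd3, the least abundant of them, whose 70 and 64 control counts compared with 35 and 45 in shLmna (edgeR adjusted p = 0.152). Within the 3 BAF60 genes, Smarcd2 took 33.6% and 34.3% of counts in shControl and 42.4% and 38.7% in shLmna, while Smarcd1 took 59.1% and 60.3% against 53.1% and 56.8%. These shares did not overlap between groups.

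Arid1a and Arid2 define the 2 main forms of the complex, BAF and PBAF. Arid1a had control counts of 151 and 310 and knockdown counts of 173 and 258, or 46.8 and 83.0 CPM against 68.4 and 70.3 CPM. The shLmna values lay between the control values, and the log2 fold change was 0.09 (SE 0.230). The direction depended on the control library used, with 0.57 (edgeR adjusted p = 0.0413) without shControl 2 and -0.25 without shControl 1. Arid2 had a log2 fold change of 0.06 and overlapping groups. Arid1b, the alternative to Arid1a, had only 1 or 2 counts per library and was not tested, and Arid1a took 99.2% to 99.4% of the Arid1 counts throughout.

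In sum over its 12 genes, the SWI/SNF subfamily had 1020 and 1059 CPM in shControl and 996 and 943 CPM in shLmna. The sum is dominated by Smarca4, Smarcb1, Smarcd1 and Smarcd2. Of its 11 tested genes, 1 fell, 1 rose and 9 did not pass.

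None of the CHD ATPases passed the test. Chd4 (Mi-2β), the main motor of NuRD, had control counts of 1100 and 1169 and knockdown counts of 985 and 1256. Its CPM values were 341 and 313 against 390 and 342, with the higher control value just under the lower shLmna value. The fitted difference for Chd4 was 0.16 on the log2 scale (SE 0.127, edgeR adjusted p = 0.434).

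Chd3 (Mi-2α), an alternative motor of the same complex, had control counts of 280 and 380 and knockdown counts of 175 and 271. In CPM these were 86.7 and 101.7 against 69.2 and 73.8, and the groups did not overlap. The difference for Chd3 was -0.40 on the log2 scale (SE 0.143, edgeR adjusted p = 0.0937), and without shControl 1 it was -0.50 at an adjusted p of 0.0197. Chd3 took 20.3% and 24.5% of the counts of Chd3, Chd4 and Chd5 in shControl and 15.0% and 17.7% in shLmna, a mean difference of -6.04 percentage points (exact permutation p = 0.333, the smallest possible). Chd5, the NuRD motor known from neurons and testis, had control counts of 1 and 0 and knockdown counts of 4 and 5. It was not tested.

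Chd8, a regulator of β-catenin targets, had control counts of 234 and 307 and knockdown counts of 248 and 382. Its CPM values of 72.5 and 82.2 against 98.1 and 104 did not overlap, and the log2 fold change was 0.39 (SE 0.136, edgeR adjusted p = 0.0885). Without shControl 2 it passed narrowly, at an adjusted p of 0.04996.

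Chd6 had control counts of 75 and 76 and knockdown counts of 73 and 122, or 23.2 and 20.3 against 28.9 and 33.2 CPM. Its log2 fold change of 0.52 (SE 0.210) had an edgeR adjusted p of 0.129. Both Chd6 and Chd8 had their higher CPM pair in shLmna, and for neither did the test across all genes pass.

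Chd9 was near the limit of counting, with control counts of 0 and 8 and knockdown counts of 9 and 13. The filter kept Chd9 through its shLmna libraries. Its log2 fold change was 1.61 (SE 0.825, edgeR adjusted p = 0.225). It depended on 1 control library, at 0.72 without shControl 1 and 6.49 (adjusted p = 0.0130) without shControl 2, where the remaining control value is 0. Chd7, which is mutated in CHARGE syndrome, had control counts of 2 and 10 and knockdown counts of 3 and 7 and was not tested.

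Chd2, which remodels chromatin at transcribed genes, had control counts of 71 and 83 and knockdown counts of 53 and 84. In CPM the 4 values lay between 21.0 and 22.9, and the log2 fold change was -0.01 with a 95% interval of -0.48 to 0.47. Its relative Chd1, which reads histone H3 methylated at lysine 4, had control counts of 4 and 3 and knockdown counts of 1 and 0. The ratio of summed Chd1 counts was 6.23-fold lower in shLmna with a counting interval of 0.801 to 280.8, which includes no difference. The 9 CHD genes together had 547 and 545 CPM in shControl and 613 and 583 CPM in shLmna, most of it from Chd4.

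The ISWI group was carried by a single gene. Smarca5 (SNF2H), the ATPase of the ACF, CHRAC and WICH complexes, had control counts of 4 and 40 and knockdown counts of 32 and 61. In CPM these were 1.24 and 10.7 against 12.7 and 16.6. The low value was shControl 1 alone, and shControl 2 lay close to shLmna 1. Over all libraries the fitted difference was 1.25 on the log2 scale (SE 0.587, edgeR adjusted p = 0.185), and it was 3.54 without shControl 2 (adjusted p = 2.74e-05) and 0.47 without shControl 1 (adjusted p = 0.358). Smarca1 (SNF2L), its paralogue, had no count in any library, which allows up to 3 counts, or between 0.788 and 1.20 CPM on the library totals. The pseudogene Smarca5-ps had no count either. Of the short stretches of its 3′ end, 79.9% also occur in other genes, mostly in Smarca5. Its reads may therefore not have been assigned to it, and that limit is not given for it.

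Among the other SNF2-type genes, Chd1l (ALC1, which is activated by poly(ADP-ribose) at DNA breaks) had control counts of 126 and 111 and knockdown counts of 65 and 104. Its log2 fold change was -0.34 (SE 0.211, edgeR adjusted p = 0.320). Smarcal1, an annealing helicase at stalled replication forks, had 1 count in shControl 1 and none elsewhere.

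Smarcad1, which remodels nucleosomes behind replication forks and at DNA breaks, had control counts of 2 and 52 and knockdown counts of 1 and 1. Of its 54 control counts 52 came from shControl 2, so the ratio of summed counts, 24.0-fold lower in shLmna with a counting interval of 6.34 to 203.5, describes that library. The filter removed Smarcad1 because it exceeded the minimum in 1 library. Of the related ATPase genes outside the symbol rule, Atrx and Hells had a like pattern, with 4, 117, 0 and 1 counts for Atrx (which deposits histone H3.3 at repeats) and 4, 91, 0 and 0 for Hells (which assists DNA methylation), in the order shControl 1, shControl 2, shLmna 1 and shLmna 2. They were chosen after their values were seen. Neither was tested, and no gene of these 3 can be given a direction with the knockdown while the control libraries disagree.

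Of the ARID genes outside SWI/SNF, Arid4b fell and the others tested did not pass. Arid4b, a subunit of the Sin3 histone deacetylase complex (chromosome 13, 14063232 to 14199603, plus strand), had control counts of 18 and 32 and knockdown counts of 2 and 1. The groups were far apart, at 7.07 ± 2.12 CPM against 0.532 ± 0.367 CPM (SD, n = 2 per group). Arid4b fell by 3.77 on the log2 scale (SE 0.638, edgeR adjusted p = 0.00389), and summed counts were 14.8-fold lower with a counting interval of 4.79 to 74.4. DESeq2 gave an adjusted p of 0.0268. Without shLmna 2 the edgeR adjusted p was 0.0858, and in the 12 other settings in which Arid4b could be fitted it stayed under 0.05.

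Arid4a, the paralogue of Arid4b in the same complex, had control counts of 19 and 32 and knockdown counts of 11 and 12. Its log2 fold change was -0.95 (SE 0.403, edgeR adjusted p = 0.146). With the correction for GC content it was -0.28 (edgeR adjusted p = 0.682). Arid4b took 48.6% and 50% of the counts of both genes in shControl and 15.4% and 7.69% in shLmna, where each library held only 13 counts of the pair.

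The Arid3 genes encode transcription factors, of which Arid3a is the B cell factor Bright. Arid3c had control counts of 15 and 12 and knockdown counts of 2 and 5, a difference of -1.76 on the log2 scale (SE 0.590, edgeR adjusted p = 0.0763) and summed counts 3.43-fold lower (counting interval 1.46 to 9.34). Arid3a had a log2 fold change of 0.55 and Arid3b of -0.52, and neither passed. No shLmna library of Arid3b or Arid3c reached 10 counts, so both were kept by the filter through their shControl libraries. Arid5a and Arid5b had 2 or fewer counts per library.

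Chd3os had the largest fitted fall of the 25 tested rows. It had control counts of 19 and 22 and knockdown counts of 1 and 0, or 5.89 and 5.89 CPM against 0.396 and 0. Chd3os fell by 4.89 on the log2 scale (SE 0.814, edgeR adjusted p = 0.00356), and summed counts were 36.5-fold lower with a counting interval of 6.19 to 1476. The width of that interval comes from the single count in shLmna. Without shLmna 2 the adjusted p was 0.0755, and it stayed under 0.05 in the 12 other settings in which it could be fitted.

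The symbol Chd3os is an older name of Rnf227, which the GENCODE annotation places on chromosome 11 at 69340461 to 69342641 on the plus strand as a protein-coding gene of the RING finger type. Chd3 lies at 69343273 to 69369406 on the minus strand, so that the genes face each other tail to tail with 631 bases between them. Reads were assigned to the last 1000 bases of a gene and to 100 bases downstream, so the counted windows do not meet if these annotated ends hold. Whether the counting used strand is not stated, and reads from an extended 3′ end of either gene could not then be told apart from the other. In these libraries Chd3 had between 175 and 380 counts where Chd3os had between 0 and 22.

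**Figure D3:**
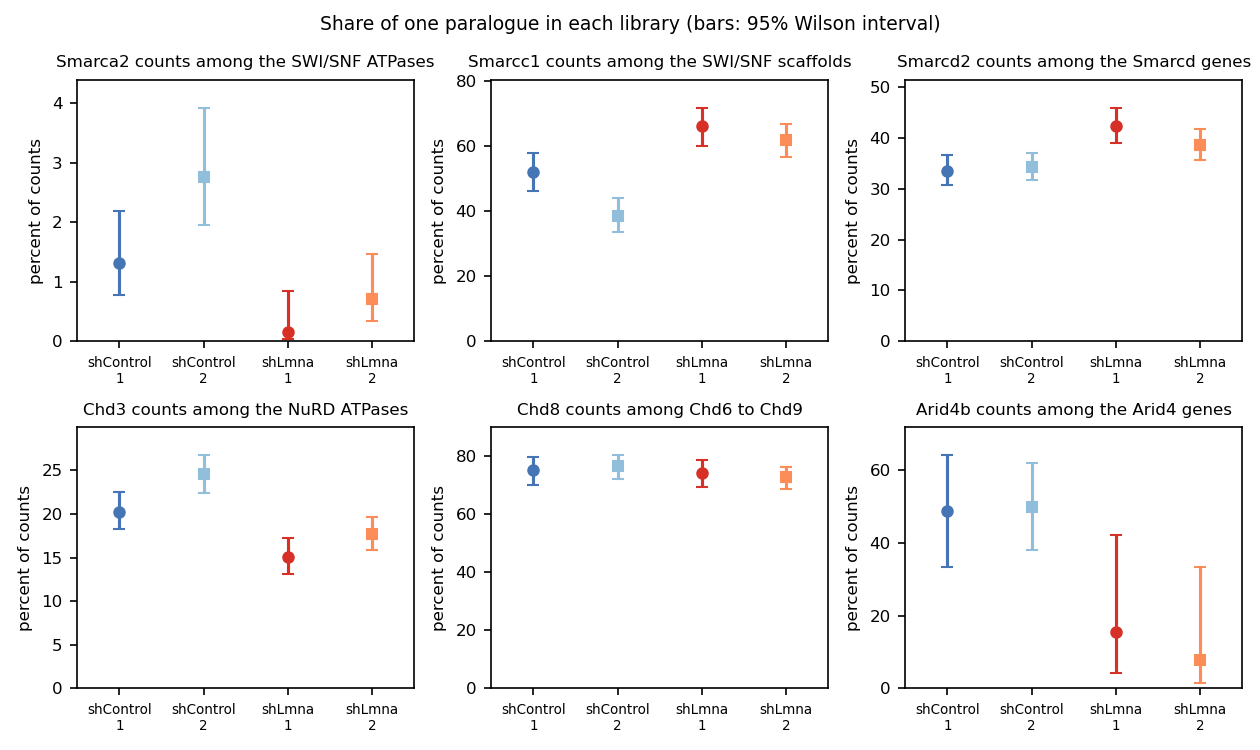
Percent of counts taken by 1 paralogue of a family in each library, with 95% Wilson intervals that cover counting error only. Each vertical axis starts at 0 and has its own range. Smarcc1 and Smarcd2 take a higher share in both shLmna libraries, Smarca2, Chd3 and Arid4b take a lower share, and Chd8 stays between 72.9% and 76.6%.

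Shares of paralogues compare related genes, some of which can stand in for each other inside a complex. Chd1 with Chd2, and Chd6 to Chd9, are set together as relatives only. Such shares do not depend on the scaling of a library. MARS-seq yields reads from the 3′ end whatever the length of a transcript, so a share is of 3′ counts and is compared here across libraries. Of 11 shares computed, 9 did not overlap between groups, which is a weak criterion with 2 libraries a group and holds for the levels of 60.1% of all tested genes. The 3 Smarcd shares sum to 100% and are not separate items. Each of the 9 had an exact permutation p of 0.333, the smallest that 2 against 2 can give. The 2 that overlapped were those of Arid1a and Smarca5, which had nearly all or all counts of their families.

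The base composition of the counted stretch moved with part of these results. In this series 33.4% of the 1830 tested genes with 40% GC or less in the last 1000 transcript bases passed the test, against 10.6% of the 7270 genes above 40%. Arid4b (30.3% GC) and Smarca2 (39.7%) were in the first class, and Smarcc1 (42.1%) and Chd3os (51.0%) in the second. Among tested members 2 of 8 passed at 40% or less and 2 of 17 above it. After a correction for GC content, the log2 fold change of Arid4b was -3.01 (edgeR adjusted p = 0.0132), that of Smarca2 -2.32 (0.0337) and that of Chd3os -4.89 (0.00423). That of Smarcc1 was 0.61 (0.0504), against 0.68 without the correction. Arid4a (31.2% GC), which did not pass, had a log2 fold change of -0.95 without the correction and -0.28 with it. The Spearman correlation of GC content and log2 fold change was -0.014 over all tested genes and -0.24 over tested members.

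**Figure D4:**
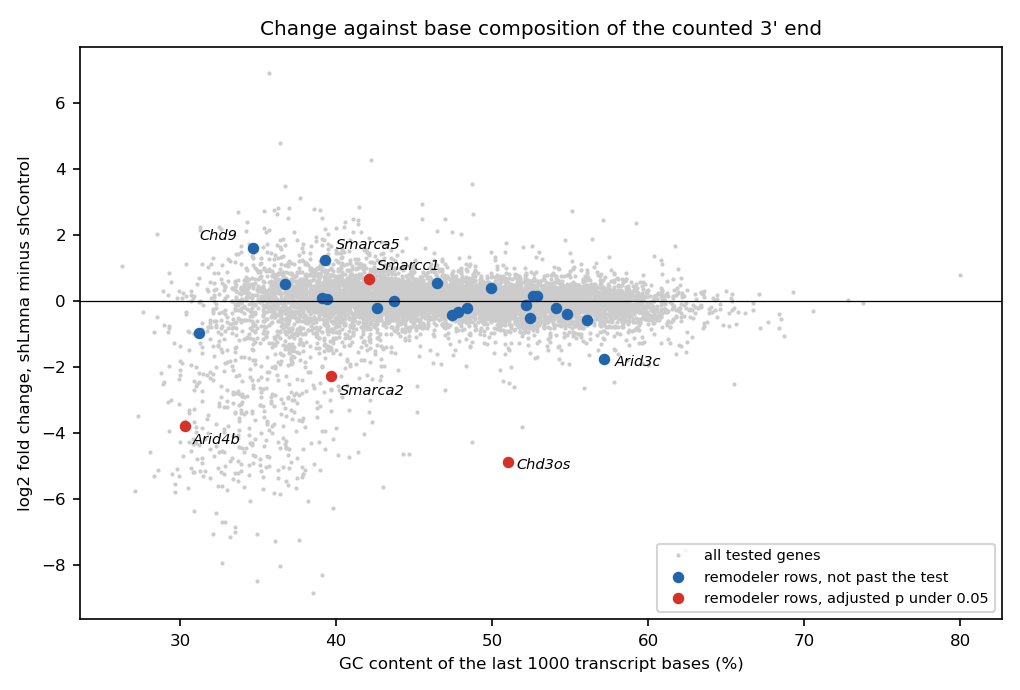
Log2 fold change (shLmna minus shControl) against GC content (%) of the last 1000 transcript bases, with all tested genes in grey, remodeler rows in blue and those at an adjusted p under 0.05 in red. Of the grey points at 40% GC or less, where Arid4b, Smarca2, Smarca5 and Chd9 lie, 33.4% passed the test, and Chd3os lies at 51.0% GC.

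The libraries of a group also differed most for low-GC genes. A difference of over 4-fold between the 2 shControl libraries was seen for 3.11% of tested genes at 40% GC or less and for 0.110% above it. Between the shLmna libraries these shares were 2.19% and 0.275%. Of the members with 10 or more counts in a control library, 2 of 9 with low GC differed by over 4-fold, Smarca5 (39.3% GC) and Smarcad1 (35.1%), and 0 of 17 above 40% did. In both, shControl 2 was the higher library. In shLmna no member with 10 or more counts differed by over 4-fold. The part of base composition in these differences was not tested further.

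Partner genes of the same complexes, which the symbol rule does not take, were counted in the same fit. So were genes of other remodelers, namely the INO80, SRCAP and TIP60 complexes and other SNF2-like ATPases. Both kinds are called partner genes here for short. None of 13 tested SWI/SNF partners passed, although 2 had an unadjusted edgeR p under 0.05, a limit for which no share of all tested genes was computed. Among the 13 were Actl6a (BAF53A) at -0.40 on the log2 scale (edgeR adjusted p = 0.0800), Pbrm1 at 0.25 and Brd9 at 0.24. Pbrm1 defines PBAF and Brd9 the non-canonical BAF complex.

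Of 9 tested ISWI partners, 1 fell and none rose. It was Baz2b, a bromodomain partner of the ISWI motors, at 47 and 36 counts in shControl against 7 and 16 in shLmna (log2 fold change -1.70, SE 0.383, edgeR adjusted p = 0.0157). Its GC content was 33.9%, and with the GC correction its log2 fold change was -1.36 (edgeR adjusted p = 0.0571). Baz1b, the partner of Smarca5 in WICH, had a log2 fold change of 0.11.

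Of 12 tested NuRD partners 1 fell, Cdk2ap1, a small subunit of the complex that also binds CDK2. It had control counts of 1389 and 2196 and knockdown counts of 534 and 732, with no overlap in CPM (509 ± 112 against 205 ± 8.31; SD, n = 2 per group). It fell by 1.31 on the log2 scale (SE 0.160, edgeR adjusted p = 0.000551), and Cdk2ap1 passed under all 14 alternative settings. The other NuRD partners, among them Mbd3 at -0.15, Mta2 at 0.0041 and Hdac1 at 0.07, did not pass.

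The INO80, SRCAP and TIP60 complexes, remodelers of the INO80 family, of which several exchange histone H2A.Z, had 4 lower and 3 higher partner genes past the test of 27 tested, the longest of these lists, where 9.74% of all tested genes passed lower and 5.48% higher. Morf4l2, an MRG-family subunit of TIP60, fell from 106 and 107 counts to 9 and 21 (log2 fold change -2.67, SE 0.286, edgeR adjusted p = 0.000261) and passed under all 14 alternative settings. Uchl5, the deubiquitinase of INO80 and the proteasome, fell by 0.89 on the log2 scale, Ruvbl1, an AAA+ ATPase of all 3 complexes, fell by 0.50, and Ino80e fell by 0.41. With the GC correction Ruvbl1 passed at -0.51, whereas Uchl5 (32.9% GC) was at -0.44 (edgeR adjusted p = 0.144) and Ino80e (54.6% GC) at -0.37 (0.0572). Ino80e passed in 6 of 14 alternative settings.

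Actr6, an actin-related subunit of SRCAP, rose from 10 and 10 counts to 20 and 39 (log2 fold change 1.69, SE 0.386, edgeR adjusted p = 0.0166). Mbtd1 of TIP60 rose by 0.76 and Znhit1 of SRCAP by 0.41. The motors themselves, Ino80 at 0.29 and Ep400 at 0.45, did not pass, and Srcap, with 6 to 11 counts, was not tested. Of the 8 other SNF2-like ATPases that could be tested none passed. Of these, 3 had an unadjusted edgeR p under 0.05, again without a share of all tested genes to set beside it. The share of partner genes passing, 9 of 67 tested, compares with 15.2% of all tested genes. Most of these 9, 4 lower and 3 higher, came from the INO80, SRCAP and TIP60 list and not from complexes of the members. Without shLmna 1, Cdk2ap1 and Morf4l2 were the only ones of these 9 to pass, and the adjusted p of the other 7 reached at most 0.265 in any alternative.

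**Figure D5:**
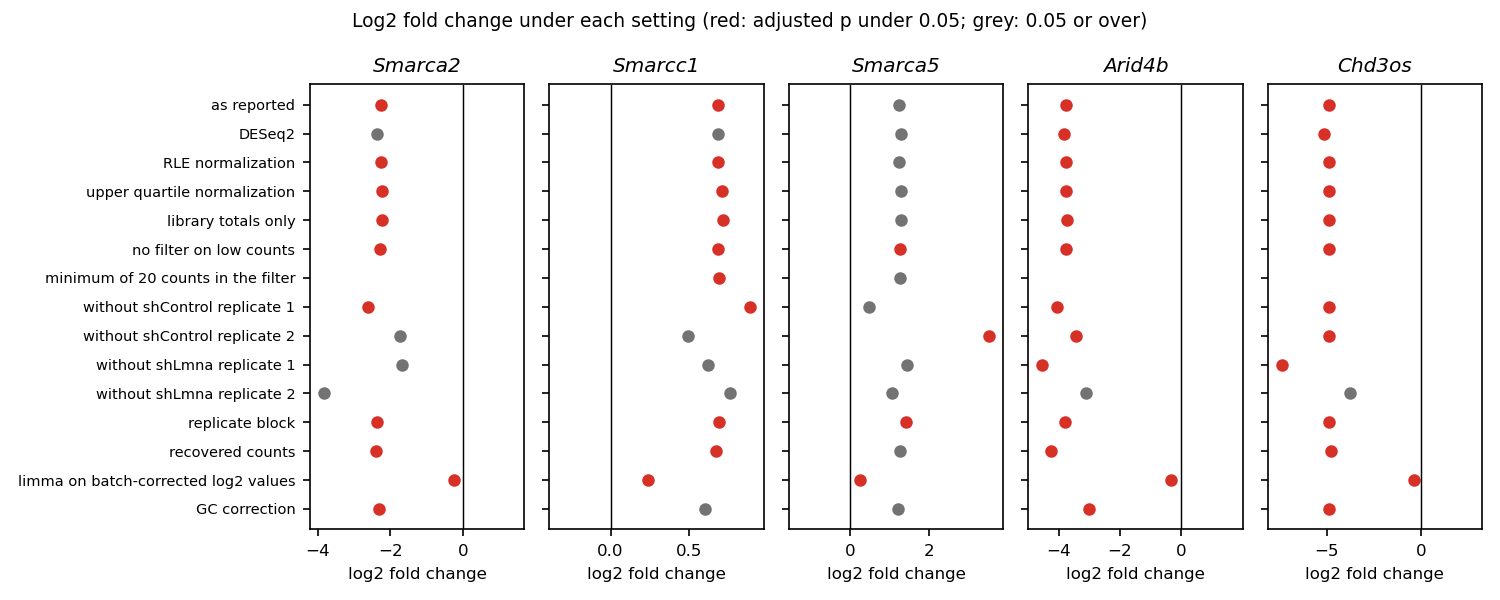
Log2 fold change (horizontal axis, own range in each panel) of Smarca2, Smarcc1, Smarca5, Arid4b and Chd3os under each analysis setting (rows), in red where the adjusted p was under 0.05 and in grey otherwise. A missing point means that the gene was not tested in that setting. Arid4b and Chd3os are red in all settings but the one without shLmna 2, whereas Smarca2 and Smarcc1 turn grey in several, and Smarca5 moves to 3.54 without shControl 2.

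Across settings no gene of these 5 changed direction. Fold changes from the batch-corrected log2 values were much smaller, for example -0.25 for Smarca2 and -0.34 for Arid4b, and that of Lmna was -1.54. The adjusted p was under 0.05 in 9 of 13 alternative settings for Smarca2 and in 9 of 14 for Smarcc1. Their adjusted p ran from 0.000870 to 0.224 for Smarca2 and from 0.000870 to 0.178 for Smarcc1, compared with 4.17e-07 to 0.0858 for Arid4b and 3.46e-07 to 0.0755 for Chd3os.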

How the data were processed

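Transcript 3′ ends were counted by bulk MARS-seq in 2 shControl and 2 shLmna libraries, with groups and replicate numbers from the sample titles. Per the study's methods and the submitters' processing notes, reads were trimmed with cutadapt, aligned to mm10 with STAR 2.4.2a and counted with HTSeq where they fell in the final 1000 bases of a RefSeq gene or in 100 bases downstream. The authors deposited raw counts per symbol, which entered all main tests. Whether duplicates of a molecular identifier had been collapsed in them is not stated. They also deposited a table of normalized signal, the counts divided by a size factor per library, from which whole counts were recovered (100% of values within 0.1 of a whole number), with p-values of their own comparison that were not used, and a table of log2 values corrected for batch with ComBat, in which the batches are not named.

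Counts were fitted over all genes with the quasi-likelihood test of edgeR 4.0.16 in R 4.3.3 (TMM, filterByExpr with a minimum of 10, group as the only term, two-sided) and adjusted over 9150 genes by the Benjamini-Hochberg method. The biological coefficient of variation was 0.126. Standard errors were derived from the F statistic. A gene passed at an adjusted p under 0.05 and was called where, in addition, the log2 fold change was over 1 in size and the mean normalized count over 5. Summed-count ratios have exact 95% intervals and shares have Wilson intervals, both for counting error only. Both kinds of interval treat each count as a separate molecule and are too narrow if duplicates remain in the raw counts. The recovered counts were lower than the raw counts by a near-constant factor. Replicates differed beyond sampling noise (chi-square per degree of freedom 6.96 and 3.91). Alternatives were DESeq2 1.42.0, other normalizations and filters, each library left out, a replicate block, the recovered counts, limma 3.58.1 on the deposited log2 values, and offsets from a loess fit against GC content (span 0.3). The fit was tested on simulated data. Gene coordinates and GC content came from GENCODE transcripts (GRCm38) and promoters from RefSeq.

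Values were given for members past the test, for the core ATPases, for Lmna and for partner genes past the test, and the remaining members by fold change or counts. The members, partner lists and markers were chosen with earlier results of these data known. Partner genes named without passing were chosen after their values were seen.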

Additional observations from a re-analysis of the deposited data

How the results depend on the processing

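All 4 members that passed did so under RLE, upper quartile and library-total scaling and with the recovered counts. The number of members passing (4) was 2 with DESeq2, 1 with a minimum of 20 counts, at which Smarca2, Arid4b and Chd3os were not tested, 13 with limma on the batch-corrected values, and between 0 and 7 with a library left out (7 without shControl 1, 6 without shControl 2, 2 without shLmna 1 and 0 without shLmna 2). The number called (3) was 5 without a filter, which added Smarca5 and Smarcad1, 0 with a minimum of 20, 0 with limma, and 0 to 4 with a library left out. Partner genes passing (9) numbered 4 with DESeq2, 27 with limma and 2 to 15 with a library left out. Over all genes, 538 were called lower and 161 higher. With limma these were 27 and 2, DESeq2 called 66 higher, and leaving out a library gave 60 to 232 higher (71 without shLmna 1 and 60 without shLmna 2). The cause of these shifts was not tested. Fold changes are smaller in the batch-corrected values than in the counts.

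The deviations of equal replicate numbers had a correlation of 0.0134 over 9150 genes, which gives no sign of pairing. It cannot show how the libraries were prepared, and no source states whether equal numbers belong together. A replicate block gave 7 members passing (Chd3, Chd8 and Smarca5 joined the 4) and 14 partner genes.

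Directions turned for members near 0. With a library left out, Arid1a ran from -0.25 to 0.57, Arid2 from -0.18 to 0.25, Chd2 from -0.063 to 0.055 and Smarcb1 from -0.22 to 0.020. Arid2 was -0.0037 with limma. Chd2 was 0.022 with upper quartile scaling, 0.024 with library totals, 0.026 with recovered counts and 0.0025 with limma. The filter left 10 members untested, of which 9 had 10 or fewer counts in every library and Smarcad1 had 52 in shControl 2 alone.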
